A study of Mus musculus with 3 samples.

Results

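The genes examined were 10 that act on calcium in muscle, Ryr2, Itpr1, Atp2a2, Pln, Casq1, Casq2, Cacna1c, Cacnb2, Kcnma1 and Kcnmb1, in the smooth muscle cells of the mouse aorta. They were taken by symbol from the 32285 genes of the deposited count tables, in which all 10 were found. In smooth muscle, 9 of the 10 had at least 100 transcripts counted in each library, and Casq2 had 26 to 34. Kcnma1 and Kcnmb1 encode a potassium channel that calcium opens, so the set holds channels that respond to calcium as well as those that carry it.

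In arterial smooth muscle, calcium enters through the L-type channel of the plasma membrane, of which Cacna1c encodes the pore and Cacnb2 an auxiliary beta subunit. Calcium is also released from the sarcoplasmic reticulum through ryanodine receptors, of which Ryr2 is one, and through inositol trisphosphate receptors such as Itpr1. The pump encoded by Atp2a2 (SERCA2) refills that store, phospholamban (Pln) restrains the pump, and calsequestrins (Casq1 and Casq2) bind calcium inside it. Local release through ryanodine receptors opens the large-conductance potassium channel formed by Kcnma1 and its beta subunit Kcnmb1, which opposes constriction.

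The cells came from male mice on a C57BL/6J background in which the mouse Apoe gene had been replaced at its own locus by human APOE2, APOE3 or APOE4, so that no group kept the mouse gene and APOE3 served as the reference. All 3 groups received a Western-type diet (fat at 42% of calories, cholesterol at 0.2%) for 16 weeks, starting at 12 weeks of age, and there was no group on a plain diet. Whole aortas, from the arch to the iliac bifurcation, were digested with enzymes and pooled by genotype, with 6, 5 and 7 mice in the APOE2, APOE3 and APOE4 pools, and each pool gave 1 droplet library. With 1 library for each genotype, no difference between genotypes was tested, and the intervals given for them cover counting error only.

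After cells with fewer than 200 genes or at least 20% mitochondrial transcripts were left out, 11772 APOE2, 6737 APOE3 and 8248 APOE4 cells remained, with 124926887 to 168310501 unique molecular identifiers (UMIs, 1 for each captured transcript) in a library and medians of 12047 to 17618 a cell. Pairs of libraries shared 14 to 27 cell barcodes. Clustering was done without the 10 genes and without the longer list of calcium genes used below. Of 25 clusters, 9 formed the smooth muscle class, with 6097 APOE2, 4160 APOE3 and 5428 APOE4 cells, named from 10 contractile markers that summed to 54106, 61191 and 57397 UMIs per 1000000 (CPM) there. Doublets were not removed, since the caller marked 1, 0 and 2 cells. Cluster C2, with 1853, 404 and 354 cells, kept all 10 contractile markers but was led by Tnnt2, which is on the cardiomyocyte list, and by Hand2, and so was left out of the class by rule. Pln, 1 of the 10 genes examined, was also among the leading genes of C2. The UMI total of a class is the depth behind its CPM values, and in smooth muscle it was 98792768, 89774743 and 97360335.

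The coordinates of the genes are on GRCm38. Of the loci, 5 are long, Kcnma1 (chr14:23289431-24014491), Cacna1c (chr6:118587240-119196418), Ryr2 (chr13:11553102-12106945), Cacnb2 (chr2:14603088-14987908) and Itpr1 (chr6:108213096-108551109), of 725, 609, 554, 385 and 338 kb. The others are shorter, Casq2 (chr3:102086415-102146514), Atp2a2 (chr5:122453513-122502225), Kcnmb1 (chr11:33963013-33973641), Casq1 (chr1:172209894-172219868) and Pln (chr10:53337667-53345987), of 60.1, 48.7, 10.6, 9.98 and 8.32 kb. Pln lies within Cep85l, Kcnmb1 within Kcnip1, and Cacna1c overlaps Dcp1b, in each case on the other strand. Whether counting used strand or intronic reads is not given in the sources used here, so reads of these pairs may not be fully told apart. Genes not annotated as protein-coding also overlap on the same strand, 7 for Cacnb2, 2 each for Ryr2, Itpr1, Atp2a2 and Casq2, and 1 for Cacna1c. For these overlaps strand would not tell reads apart.

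Casq1 and Pln had opposite orders along the aorta and Casq2 was highest in 1 smooth muscle subset and the 250 bases before their RefSeq start sites (GRCm38.p6) are shown for that reason, 5′ to 3′ on the strand of the gene. Capitals mark the E-box CAGCTG in Casq1, a match to the MEF2 site in Casq2 and the TATA sequence TATAAA in Pln.
Casq1, chr1:172219896-172220145, minus strand: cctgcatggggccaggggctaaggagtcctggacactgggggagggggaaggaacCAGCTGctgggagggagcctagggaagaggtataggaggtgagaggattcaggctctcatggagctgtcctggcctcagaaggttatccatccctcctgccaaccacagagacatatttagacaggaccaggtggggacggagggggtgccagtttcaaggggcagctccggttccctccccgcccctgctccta
Casq2, chr3:102086165-102086414, plus strand: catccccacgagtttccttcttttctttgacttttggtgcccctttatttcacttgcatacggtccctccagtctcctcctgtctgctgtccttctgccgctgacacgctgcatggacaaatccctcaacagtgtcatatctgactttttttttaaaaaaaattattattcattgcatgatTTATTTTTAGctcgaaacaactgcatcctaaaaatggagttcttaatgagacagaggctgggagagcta
Pln, chr10:53337436-53337685, plus strand: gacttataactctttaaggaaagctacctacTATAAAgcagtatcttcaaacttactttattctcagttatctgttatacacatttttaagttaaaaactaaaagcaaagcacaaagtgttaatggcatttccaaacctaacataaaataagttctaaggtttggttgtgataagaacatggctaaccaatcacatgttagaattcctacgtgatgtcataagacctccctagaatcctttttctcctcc
The marked bases began 195, 69 and 219 bases before the start sites. Among 32851 mouse promoters of 300 bases searched on both strands, CAGCTG was present in 16.3%, the MEF2 site in 3.19%, TATAAA in 13.6% and the CArG box, the serum response factor motif, in 1.63%. Among the 8 members with a promoter entry, with 11 promoters in all, CAGCTG was present in 4 (Pln, Casq1, Cacna1c and Cacnb2), the MEF2 site in 1 and TATAAA in 1. No CArG box was present in the windows of these 8. Atp2a2 and Itpr1 had no promoter entry. These matches describe letters in a window and were not tested as sites.

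The first comparison was of smooth muscle with the fibroblasts of the same libraries, which asks how far each gene marks the contractile cells of the wall. The 3 libraries, each of another genotype, were the replicates. All 10 genes were higher in smooth muscle by edgeR's quasi-likelihood test with the library as a block (Benjamini-Hochberg adjusted over 16519 genes), against a background of 32.4% of all genes called higher and 29.3% called lower. Kcnmb1 was at 148, 169 and 141 CPM in smooth muscle of the APOE2, APOE3 and APOE4 libraries and at 10.6, 12.6 and 11.2 in fibroblasts, with a log2 fold change of 4.04 ± 0.082 (SE, n = 3 libraries, edgeR adjusted p = 1.4e-06). Casq1 was at 26.6, 37.9 and 39.5 CPM against 2.24, 3.76 and 3.70, with a log2 fold change of 3.74 ± 0.099 (edgeR adjusted p = 1.5e-06). The smooth muscle and fibroblast values of both genes lay far apart in every library. Ryr2 was at 122, 104 and 85.7 CPM against 16.1, 12.0 and 13.0, with a log2 fold change of 3.21 ± 0.11 (edgeR adjusted p = 2.7e-06). Pln was at 11.4, 11.6 and 7.28 CPM against 1.75, 1.53 and 0.277, with a log2 fold change of 3.4 ± 0.28 (edgeR adjusted p = 8.8e-05), and its fibroblast values rested on 25, 13 and 3 UMIs.

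The channel genes Kcnma1 and Cacnb2 came next, with log2 fold changes of 2.42 ± 0.096 and 2.36 ± 0.11 (edgeR adjusted p = 4.7e-06 and 8.2e-06). The pump, the inositol trisphosphate receptor and the L-type pore differed least. Atp2a2 was at 357, 361 and 384 CPM in smooth muscle and 208, 165 and 184 in fibroblasts, with a log2 fold change of 1.29 ± 0.10 (edgeR adjusted p = 8.2e-05). Itpr1 was at 172, 160 and 181 CPM against 109, 113 and 135, with a log2 fold change of 0.83 ± 0.075 (edgeR adjusted p = 0.00014). Cacna1c, the pore of the L-type channel, was at 114, 95.9 and 108 CPM against 88.3, 66.2 and 78.9, with a log2 fold change of 0.75 ± 0.078 (edgeR adjusted p = 0.00025). Smooth muscle was above fibroblasts in every library for these 3 genes, although the fibroblast levels were well above 0. The fold changes were taken after edgeR scaled the profiles (TMM). For these 3 genes they were larger than the ratio of the CPM values in every library. Casq2 was the weakest case, with 28, 26 and 34 UMIs in smooth muscle and 0, 0 and 2 in fibroblasts, and its call (log2 fold change 2.63 ± 0.91, edgeR adjusted p = 0.042) was lost in DESeq2 (adjusted p = 0.087), when either the APOE2 or the APOE3 library was left out (edgeR adjusted p = 0.10 in both) and when all 17 clusters that keep smooth muscle markers were summed (0.0503).

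The 10 contractile markers give the level that smooth muscle transcripts reached in fibroblasts, the source of which was not tested. Summed, they were in fibroblasts at 7.48%, 9.92% and 9.18% of their smooth muscle level, and in macrophages at 11.6%, 20.1% and 18.2%. These shares, and those that follow, are ratios of CPM without the TMM scaling. Relative to smooth muscle, fibroblast Kcnmb1 was at 7.13%, 7.43% and 7.92% and Casq1 at 8.42%, 9.92% and 9.35%, both within or below the range of the single markers (6.77% to 13.4%, 8.61% to 15.4% and 8.10% to 16.8%). Kcnmb1 was also below the summed markers in all 3 libraries, and Casq1 above them in APOE2 and APOE4. By contrast, Cacna1c was at 77.2%, 69.0% and 73.3%, Itpr1 at 63.4%, 70.4% and 74.4% and Atp2a2 at 58.2%, 45.8% and 47.8%, above the marker with the highest share. Cacnb2 (19.1%, 28.0% and 26.1%) and Kcnma1 (20.6%, 22.2% and 26.9%) were also above it. Ryr2 (13.2%, 11.5% and 15.2%) was within the markers' range in all 3 libraries. Pln (15.4%, 13.1% and 3.81%) was above that range in APOE2, within it in APOE3 and below it in APOE4.

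**Figure D1:**
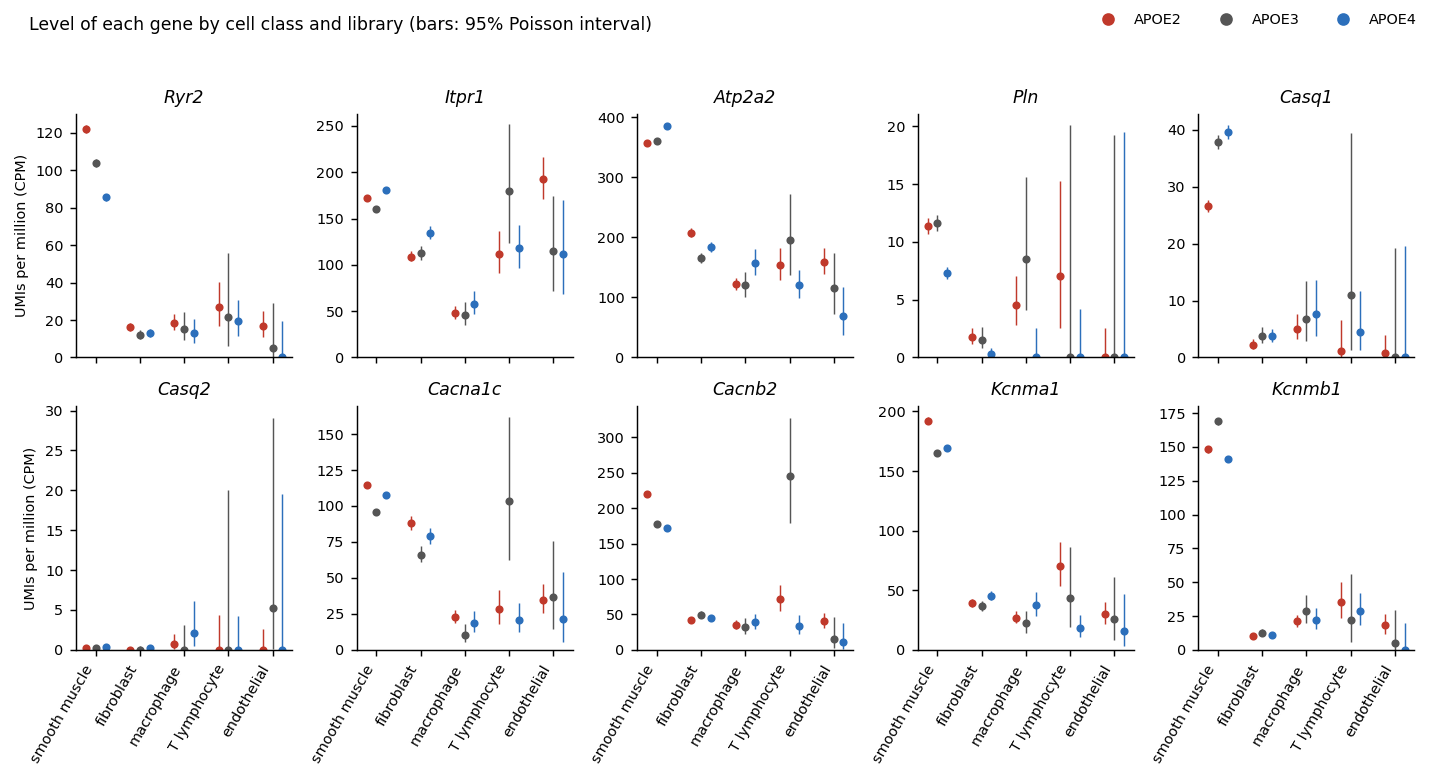
Level of each of the 10 genes in UMIs per 1000000 (CPM) by cell class, with 1 point for each of the 3 libraries and bars for the 95% Poisson interval; each panel has its own scale from 0. Smooth muscle stands above fibroblasts in every library for all 10 genes, widely for Kcnmb1 (141 to 169 against 10.6 to 12.6 CPM) and narrowly for Cacna1c (95.9 to 114 against 66.2 to 88.3 CPM), and the few lymphocytes give wide intervals.

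The share of cells with a transcript was set at equal depth by thinning cells to 3000 UMIs, and cells with fewer UMIs were left out of it. Ryr2 was then found in 29.0%, 24.0% and 21.1% of smooth muscle cells and Atp2a2 in 63.3%, 62.8% and 65.4%. Casq1 was found in 7.01%, 9.59% and 10.7% and Pln in 3.07%, 2.95% and 1.96%. The thinned shares of 9 of the 10 genes were above those in macrophages, T lymphocytes and B lymphocytes in all 3 libraries, Casq2 being the exception with 0.10%, 0.098% and 0.075% of smooth muscle cells. The same count of 9 held with thinning to 1000 UMIs and without thinning. The share of all genes that would meet this is not given, so the count has no background beside it. The lymphocyte classes were small, with 11 B lymphocytes and 17 T lymphocytes in APOE3 before shallow cells were left out. The median depth there was 4869 and 7652 UMIs against 20015 in smooth muscle.

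The wider calcium machinery was read from a list of 101 other genes, of which 90 could be tested in smooth muscle against fibroblasts. Of these, 37 were higher and 33 lower in smooth muscle, beside 32.4% and 29.3% of all genes. Their median log2 fold change was 0.04 beside 0.02 over all genes, so the list as a whole did not move as the 10 genes did. The 10 genes and the list were chosen with earlier results of these data known, so no conclusion is drawn from this contrast. By role, 9 of 18 tested genes of store release and uptake were higher and 6 lower, and 10 of 18 calmodulins and calcium-dependent enzymes were higher and 7 lower. Potassium and chloride channels had 6 of 14 higher and 4 lower, and voltage-gated calcium channel genes 4 of 14 higher and 5 lower. Of the 5 genes of mitochondrial calcium uptake, 1 was higher and 4 were lower.

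Within smooth muscle the 9 subsets were told apart by their leading genes. C0 was led by stress genes such as Dnajb1 and Atf3, C1 by Igfbp2, Des and Actg2, C3 by the long noncoding RNA Carmn, C4 and C6 by Hox genes, C9 by Spp1 and Vcam1, C11 by mitochondrial genes and C16 by Fgf12, Msx2 and Dlx genes. C15 was a subset of low UMI counts, with medians of 2905 to 4522 against 14390 to 23407 in C0 and C1. Levels across subsets are given as a description, with no test.

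The release channels were highest in C3 or C11 and lowest in C15 in every library. Ryr2 was at 202, 176 and 147 CPM in C3 and at 23.5, 22.8 and 19.6 in C15, which is 7.52- to 8.80-fold between the highest and the lowest subset of a library. It was also low in C1, at 65.3, 58.7 and 45.7 CPM. Itpr1 ranged less, from 245, 224 and 247 CPM in C3 to 95.8, 83.8 and 112 in C15, a 2.21- to 2.68-fold range. C11 stood at 207 CPM of Ryr2 in APOE2 but at 121 and 93.5 in APOE3 and APOE4, so the order of C3 and C11 was not the same in all libraries.

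The L-type channel genes were likewise highest in C3 by mean CPM and lowest in C15. Cacna1c was at 188, 159 and 175 CPM in C3 and at 20.3, 17.1 and 32.6 in C15, and Cacnb2, its beta subunit, at 357, 290 and 284 CPM in C3 and at 39.0, 26.0 and 47.5 in C15. Over the 27 values of 9 subsets in 3 libraries, log2 levels of Cacna1c and Cacnb2 had a Pearson r of 0.98, given as a description because the values share libraries, depth and base composition. Their orders were not identical, since by mean CPM C11 followed C3 for Cacna1c but stood below C6 and C4 for Cacnb2. Ryr2 had an r of 0.95 with Cacnb2 and 0.94 with Cacna1c, and Itpr1 one of 0.94 with Cacna1c.

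The 2 subunits of the large-conductance potassium channel did not share an order. Kcnma1, the pore, was highest in C16 in all 3 libraries, at 290, 300 and 256 CPM, and lowest in C15, at 61.7, 62.6 and 68.0. Kcnmb1, the beta subunit, was highest in C15 in all 3 libraries, at 213, 264 and 170 CPM, and lay between 93 and 194 CPM in the other 8 subsets. Their r was -0.35 over the 27 values. Kcnmb1 went with Casq1 (r = 0.68).

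The store proteins had patterns of their own. Casq1 was high in C15 (48.7, 55.3 and 63.3 CPM), C1 (42.1, 53.4 and 50.6) and C4 (52.9, 45.8 and 42.7), and low in C9 (6.90, 18.8 and 16.7) and C16 (9.35, 7.71 and 17.3). Casq2, the cardiac calsequestrin, had 13, 14 and 19 of its 28, 26 and 34 smooth muscle UMIs in the 256, 122 and 202 cells of C16, giving 2.90, 5.68 and 4.33 CPM. In the other subsets it did not exceed 0.813 CPM. C16 was thus the subset highest in Casq2 and among the lowest in Casq1. Pln was high in C9 of APOE3 and APOE4 (22.9 and 23.2 CPM) but at 8.90 in APOE2, and low in C4 (2.24, 2.10 and 1.80), C6 (2.99, 2.65 and 2.53) and C16 (3.34, 1.22 and 1.6). Atp2a2 varied least of the genes of the store, from 226, 239 and 261 CPM in C9 to 472, 426 and 476 in C16.

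**Figure D2:**
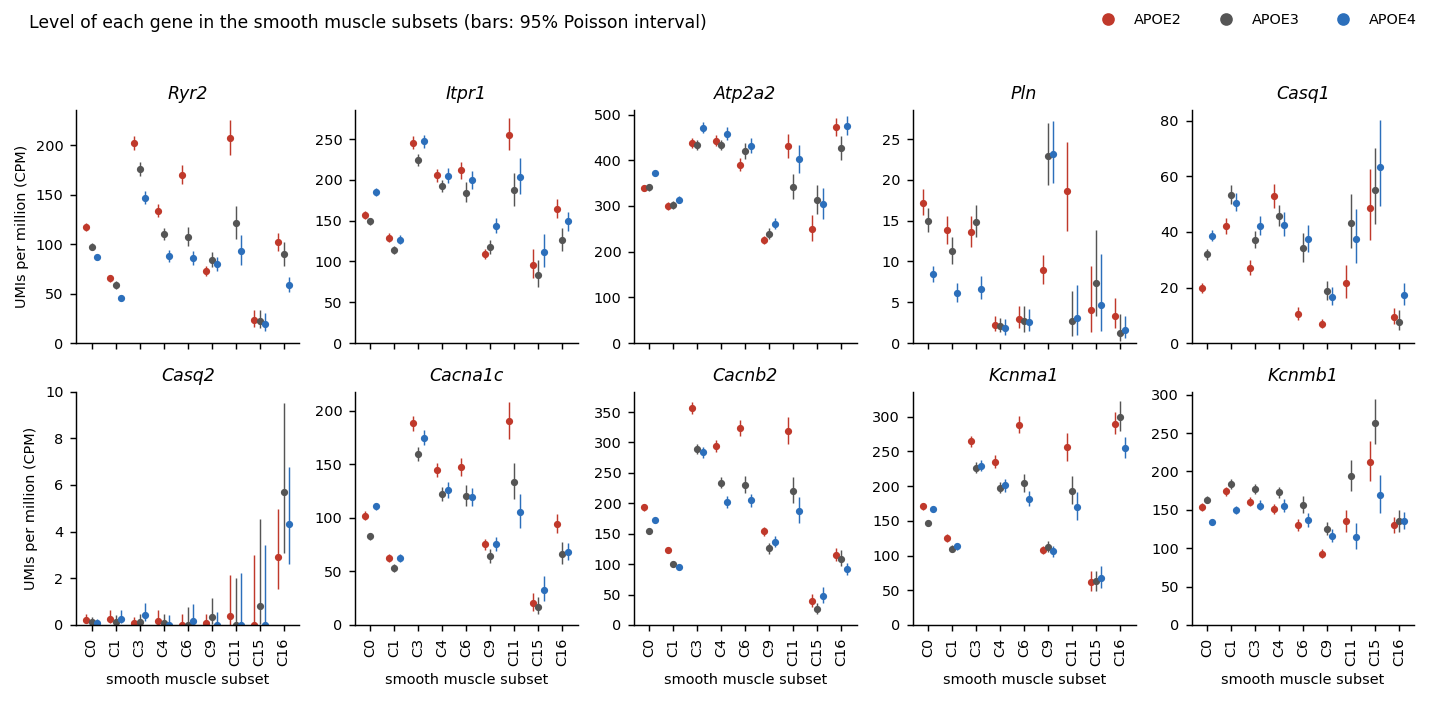
Level of each of the 10 genes in UMIs per 1000000 (CPM) in the 9 smooth muscle subsets, with 1 point for each of the 3 libraries and bars for the 95% Poisson interval; each panel has its own scale from 0. Ryr2, Itpr1, Cacna1c and Cacnb2 fall from C3 to C15, Kcnmb1 is highest in C15, Kcnma1 and Casq2 are highest in C16, and Pln is near its lowest in C4, C6 and C16.

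Most neighbours in these orders overlapped in level across libraries. The rule used for this does not pair subsets within a library. A pair with the same order in every library can thus fail it, as Kcnma1 in C16 and C3 did. With the 9 subsets ordered by mean CPM, all 3 libraries of the upper subset lay above all 3 of the next one in 1 of 8 neighbouring pairs for Itpr1, Pln, Casq1, Casq2 and Kcnmb1, in 2 for Ryr2, Atp2a2 and Kcnma1, and in 3 for Cacna1c and Cacnb2. The highest subset was the same in all libraries for 4 genes (Casq2, Cacnb2, Kcnma1 and Kcnmb1), and the lowest for 6 (Ryr2, Itpr1, Atp2a2, Cacna1c, Cacnb2 and Kcnma1).

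RNA held in the nucleus moved with these orders. The summed level of 4 nuclear-retained RNAs, of which Malat1 made up nearly all, was 34122, 30668 and 35204 CPM in C3 and 5724, 1979 and 4165 in C15. Over the 27 values its r with the log2 level was 0.85 for Cacna1c, 0.84 for Ryr2, 0.83 for Cacnb2, 0.83 for Kcnma1 and 0.71 for Itpr1, which are the 5 genes with the longest loci. It was 0.49 for Atp2a2, -0.04 for Pln, -0.53 for Casq1 and -0.69 for Kcnmb1. C16 departed from this, with 35777, 33550 and 35130 CPM of these RNAs but only 94.2, 66.5 and 68.4 CPM of Cacna1c. Outside the class, the unnamed cluster C8, with low UMI counts, had 62735, 57039 and 54657 CPM of these RNAs and 489, 503 and 369 CPM of Ryr2, above every smooth muscle subset for both. The part of nuclear RNA in the subset levels was not tested.

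**Figure D3:**
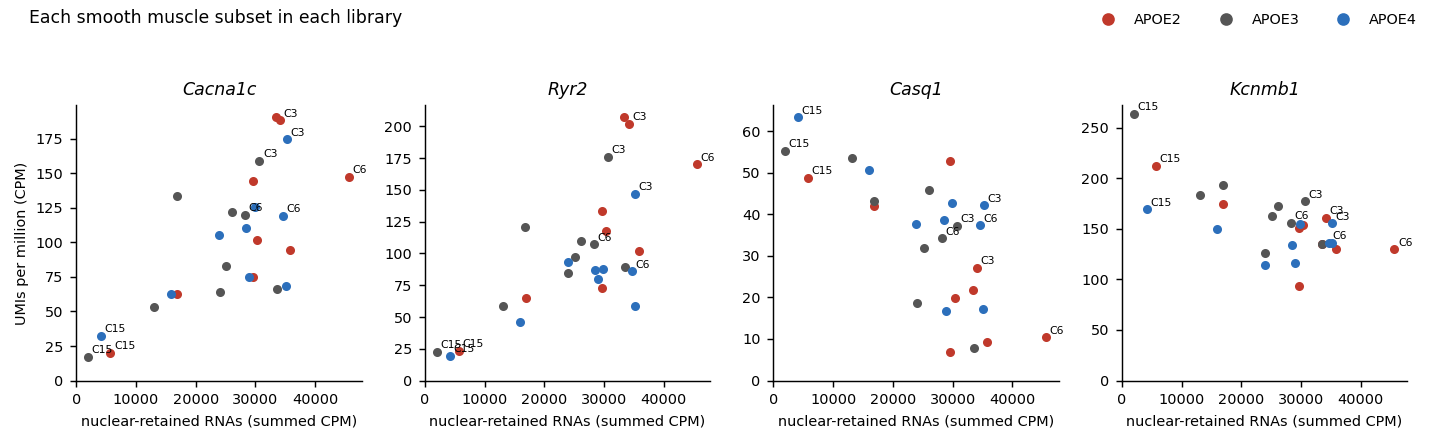
Level (CPM) of Cacna1c, Ryr2, Casq1 and Kcnmb1 against the summed CPM of 4 nuclear-retained RNAs, with 1 point for each smooth muscle subset in each library and C3, C6 and C15 labelled. Cacna1c and Ryr2 rise with the nuclear RNAs (r = 0.85 and 0.84 on log2 levels) and Casq1 and Kcnmb1 fall (r = -0.53 and -0.69), with C15 at the left edge.

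The genes most like each member were sought among 11686 genes by Pearson r of log2(CPM + 1) over the same 27 values. Cacna1c was most like Ctnna3, Cacnb2 and Pde3a (0.97 to 0.98), Cacnb2 like Cacna1c, Sgcd and Erbb4 (0.96 to 0.98) and Ryr2 like Ralgapa1, Prkg1 and Hip1 (0.96 to 0.97). Itpr1 was most like Pde4dip, Lnpep and Kcnab1 (0.94 to 0.96), Atp2a2 like Itga9, Crtc3 and Itga8 (0.94) and Kcnma1 like Fry, Zmynd11 and Foxn3 (0.97). Kcnmb1 was most like Itga7, Smtn and Pink1 (0.90 to 0.93) and Casq1 like Gm45670, Acta2 and Susd2 (0.93 to 0.96), so that the latter 2 members had contractile genes, Smtn and Acta2, among their 3 nearest. Pln had the loosest neighbours, Ifi27l2b, Igfbp2 and Sncg (0.82 to 0.86).

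Position along the aorta was compared next, between smooth muscle cells with at least 2 UMIs of Hand2 and none of 6 Hox genes (Hoxb7, Hoxa7, Hoxb8, Hoxb9, Hoxa6 and Hoxc6), called arch here, and cells with at least 2 UMIs of the Hox genes and none of Hand2, called descending. Hand2 marks cells of the arch and Hox genes cells further down, and neither was among the 10 genes. Arch cells numbered 1258, 721 and 558 and descending cells 1154, 1170 and 1688, with medians of 19786, 24319 and 19510 against 14506, 19783 and 16568 UMIs a cell. The classes are ranges cut by counts, with 247 to 591 cells of a class and library at the cut of exactly 2 UMIs.

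Of 9 genes that could be tested, 5 were higher in descending cells (Casq1, Cacnb2, Cacna1c, Kcnma1 and Itpr1) and 1 was lower (Pln), by edgeR with the library as a block and adjustment over 13833 genes, against a background of 5.65% of all genes called higher and 10.2% called lower. Pln was at 2.66, 2.01 and 4.27 CPM in descending cells and at 17.1, 26.8 and 14.7 in arch cells, with a log2 fold change of -2.72 ± 0.29 (SE, n = 3 libraries, edgeR adjusted p = 0.00075). Casq1 went the other way, at 36.8, 43.5 and 45.7 CPM in descending cells and 14.2, 18.3 and 23.5 in arch cells, with a log2 fold change of 1.15 ± 0.078 (edgeR adjusted p = 9.4e-05). Pln was lower and Casq1 higher in descending cells in every library, and the pump's inhibitor and the store's calcium buffer thus had opposite orders along the aorta. Both calls also held without the block (edgeR adjusted p = 0.012 for Pln and 0.041 for Casq1).

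Differences of the channel genes were smaller. Cacnb2 was at 278, 209 and 184 CPM in descending cells and 174, 154 and 149 in arch cells (log2 fold change 0.43 ± 0.063, edgeR adjusted p = 0.0031). Cacna1c was at 136, 108 and 112 against 91.3, 78.1 and 87.8 (0.42 ± 0.049, edgeR adjusted p = 0.0011), and Kcnma1 at 232, 186 and 178 against 155, 133 and 152 (0.39 ± 0.062, edgeR adjusted p = 0.0049). Descending values lay above arch values in every library for these 3 genes. Itpr1 was at 202, 175 and 190 against 145, 147 and 174 (0.24 ± 0.062, edgeR adjusted p = 0.037), a call that was lost without the APOE2 library (adjusted p = 0.061) and without the APOE3 library (0.075). Without the block, none of these 4 passed (edgeR adjusted p = 0.12 to 0.47). Ryr2 (0.18 ± 0.095, edgeR adjusted p = 0.27), Atp2a2 (0.10 ± 0.043, adjusted p = 0.16) and Kcnmb1 (-0.07 ± 0.041, adjusted p = 0.29) were not called. Ryr2 was at 140, 98.3 and 84.2 CPM in descending cells and at 97.8, 103 and 73.4 in arch cells, so that the ranges of the 2 positions overlapped. It was called without the APOE3 library (edgeR adjusted p = 0.024) and without a filter on low counts (0.012).

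Position and subset overlap, so the same comparison was made inside each of the 4 subsets with enough cells of both positions, which gave 12 pairs of subset and library. Pln was lower in descending cells in 11 of the 12 by its counting interval and higher in 0, and Casq1 higher in 11 and lower in 0. Cacnb2 was higher in 8, Cacna1c and Kcnma1 in 7 and Itpr1 in 5, and none of these 4 was lower in any. Ryr2 was higher in 3 and lower in 2. Over the 12 pairs the medians of Pln and Casq1, -2.59 and 1.03 on the log2 scale, were near their differences over the class. Single pairs varied widely. Those of Pln ran from -5.71 (C9 of APOE3, on 1 descending UMI) to 0.54 (C9 of APOE4). Those of Casq1 ran from 0.48 (C3 of APOE4) to 2.86 (C9 of APOE4).

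Other lists differed with position too. The cardiomyocyte list summed to 243, 178 and 98.8 CPM in arch smooth muscle and 53.1, 37.1 and 36.9 in descending smooth muscle, of which Tnnt2 alone made 223, 157 and 80.1 in arch cells. Of its 10 genes, 2 or 3 were at 0 in each arch class and 7 or 8 under 1 CPM. Immediate early and dissociation genes summed to 14988, 18104 and 24612 CPM in arch cells and 7745, 11566 and 18642 in descending cells. The pericyte list, led by Rgs5 in descending cells, summed to 479 to 531 CPM in arch cells and 855 to 1526 in descending cells. Cacnb2, Cacna1c, Kcnma1 and Itpr1 are also among the genes with the longest loci, whose levels moved with nuclear-retained RNA across subsets (r = 0.71 to 0.85). Ryr2, with a locus of 554 kb and an r of 0.84, is another of them and was not called by position. The part of these lists, and of nuclear-retained RNA, in the position results was not tested. Of the wider calcium list, 73 genes were tested, of which 7 were higher and 12 lower in descending cells, beside 5.65% and 10.2% of all genes. Their median log2 fold change was -0.08 beside 0.01 over all genes.

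**Figure D4:**
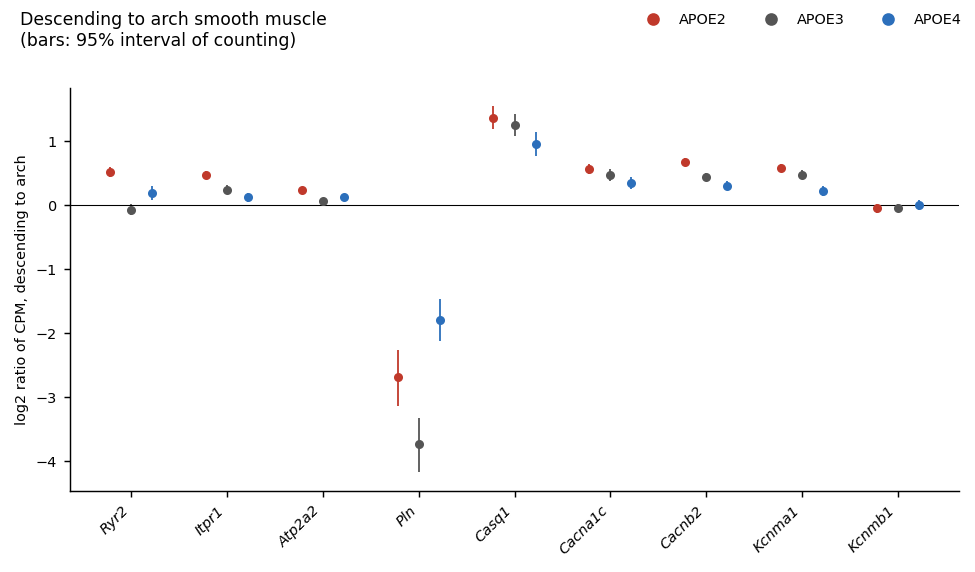
Log2 ratio of CPM in descending to arch smooth muscle cells for 9 of the 10 genes (Casq2 had too few UMIs), with 1 point for each of the 3 libraries and bars for the 95% counting interval. Pln lies far below 0 in all 3 libraries (edgeR log2 fold change -2.72) and Casq1 well above (1.15), while the channel genes sit nearer 0.

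Genotype was compared last, in the whole smooth muscle class, to ask whether the calcium genes differed between aortas of APOE2 or APOE4 mice and those of APOE3 mice. The count taken was of genes with at least 100 UMIs over both libraries that were at or past 1.5-fold. From APOE3 to APOE2, 0 of the 9 members with that many UMIs were past 1.5-fold, against 7.05% of all 13573 genes higher and 1.91% lower. From APOE3 to APOE4, 0 were higher and 1 (Pln) was lower, against 6.25% and 2.73% of 13440 genes. From APOE2 to APOE4, 0 were higher and 1 (Pln) was lower, against 5.26% and 8.18% of 13724 genes. The 3 comparisons share libraries. The median log2 ratio of the members was 0.10 in APOE2 over APOE3, beside 0.03 over all genes, 0.04 beside -0.09 in APOE4 over APOE3, and -0.09 beside -0.11 in APOE4 over APOE2.

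Ryr2 stood in the order APOE2, APOE3, APOE4, at 122 (95% interval 120 to 124), 104 (102 to 106) and 85.7 (83.9 to 87.6) CPM. Its log2 ratio was 0.23 (0.19 to 0.27) in APOE2 over APOE3, -0.28 (-0.32 to -0.24) in APOE4 over APOE3 and -0.51 (-0.55 to -0.47) in APOE4 over APOE2. The APOE4 value was below the APOE3 value in 9 of the 9 subsets, in 7 of them with an interval below 0. APOE2 was above APOE3 in 8 of the 9, in 6 with an interval above 0 and in 1 with an interval below it. In arch cells APOE2 and APOE3 could not be told apart (-0.07, interval -0.16 to 0.01), whereas APOE4 was below both.

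Casq1 was lower in the APOE2 library than in the others, at 26.6 CPM (25.6 to 27.7) against 37.9 (36.6 to 39.2) with APOE3 and 39.5 (38.3 to 40.8) with APOE4. The log2 ratio was -0.51 (-0.58 to -0.43) in APOE2 over APOE3 and 0.57 (0.50 to 0.64) in APOE4 over APOE2, a 1.49-fold difference, while APOE4 and APOE3 differed by 0.06 (-0.00 to 0.13). Subsets differed in this. In C6, a subset led by Hox genes, Casq1 was at 10.4, 34.2 and 37.3 CPM, and in C9 at 6.90, 18.8 and 16.7, both lowest in APOE2. In C4, also led by Hox genes, it was at 52.9, 45.8 and 42.7 CPM, highest in APOE2. Over the 9 subsets, APOE2 was below APOE3 in 6 and above it in 1 by the counting interval. By position, Casq1 was at 14.2, 18.3 and 23.5 CPM in arch cells and 36.8, 43.5 and 45.7 in descending cells, lowest in APOE2 in both. Arch cells, in which Casq1 was lower, made up 20.6%, 17.3% and 10.3% of the class. The part of that share in the class ratios was not tested. Over 14 alternatives, which include each position alone, the APOE2 to APOE3 ratio ran from -0.85 to -0.24. In the unnamed cluster C2 Casq1 was at 2.82 CPM in APOE2 against 27.5 and 29.2, and the fold between libraries there was 10.4 in APOE4 over APOE2. With C2 added to the class, the ratios of Casq1 passed 1.5-fold, at -0.76 in APOE2 over APOE3 and 0.84 in APOE4 over APOE2.

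Pln was at 11.4 CPM (10.7 to 12.1), 11.6 CPM (10.9 to 12.4) and 7.28 CPM (6.76 to 7.84) in APOE2, APOE3 and APOE4, with a log2 ratio of -0.68 (-0.82 to -0.54) in APOE4 over APOE3 and -0.64 (-0.78 to -0.51) in APOE4 over APOE2. By position the direction was not the same. In arch cells Pln was at 17.1, 26.8 and 14.7 CPM, highest in APOE3, and in descending cells at 2.66, 2.01 and 4.27 CPM, highest in APOE4. Its APOE4 to APOE3 ratio was -0.86 (-1.11 to -0.62) in arch cells and 1.09 (0.62 to 1.58) in descending cells, the latter on 137 and 52 UMIs. Of these UMIs, 48 and 1 came from the 71 and 34 descending cells of C9 in APOE4 and APOE3. C0 held 39 and 10 in 422 and 150 cells, and C1 20 and 9 in 340 and 224. C3 held 12 and 10 in 222 and 144 cells. Arch cells, in which Pln was higher, made up 20.6%, 17.3% and 10.3% of the class in APOE2, APOE3 and APOE4, and the part of that share in the ratios over the class was not tested. With C2 added, the APOE4 to APOE3 ratio was no longer past 1.5-fold.

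The L-type channel genes and Kcnma1 were slightly higher in the APOE2 library. Cacnb2 was at 221, 178 and 172 CPM, with an APOE2 to APOE3 ratio of 0.31 (0.28 to 0.34), and Cacna1c at 114, 95.9 and 108, with a ratio of 0.25 (0.21 to 0.29). Both were positive in 9 of the 9 subsets. Kcnma1 was at 192, 165 and 169 CPM, with a ratio of 0.22 (0.19 to 0.25). Its beta subunit Kcnmb1 was at 148, 169 and 141 CPM, lower in both APOE2 (-0.19, interval -0.22 to -0.16) and APOE4 (-0.26, interval -0.29 to -0.23) than in APOE3, and negative in 9 and in 8 of the 9 subsets. Itpr1 (172, 160 and 181 CPM) and Atp2a2 (357, 361 and 384 CPM) were highest in APOE4, with APOE4 to APOE3 ratios of 0.18 (0.15 to 0.21) and 0.09 (0.07 to 0.11). Casq2 had too few UMIs for a difference to be detected at this depth (0.283, 0.290 and 0.349 CPM).

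Other properties of the libraries moved with genotype beside these values. In smooth muscle, immediate early and dissociation genes summed to 11954, 14880 and 20404 CPM, mitochondrial genes to 23158, 16040 and 28150, nuclear-retained RNAs to 29445, 23754 and 27622, and the cardiomyocyte list to 143, 95.5 and 54.5, of which Tnnt2 made 124, 77.1 and 36.8. Their part in the genotype ratios was not tested, and with 1 library for each genotype they cannot be told apart from genotype.

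**Figure D5:**
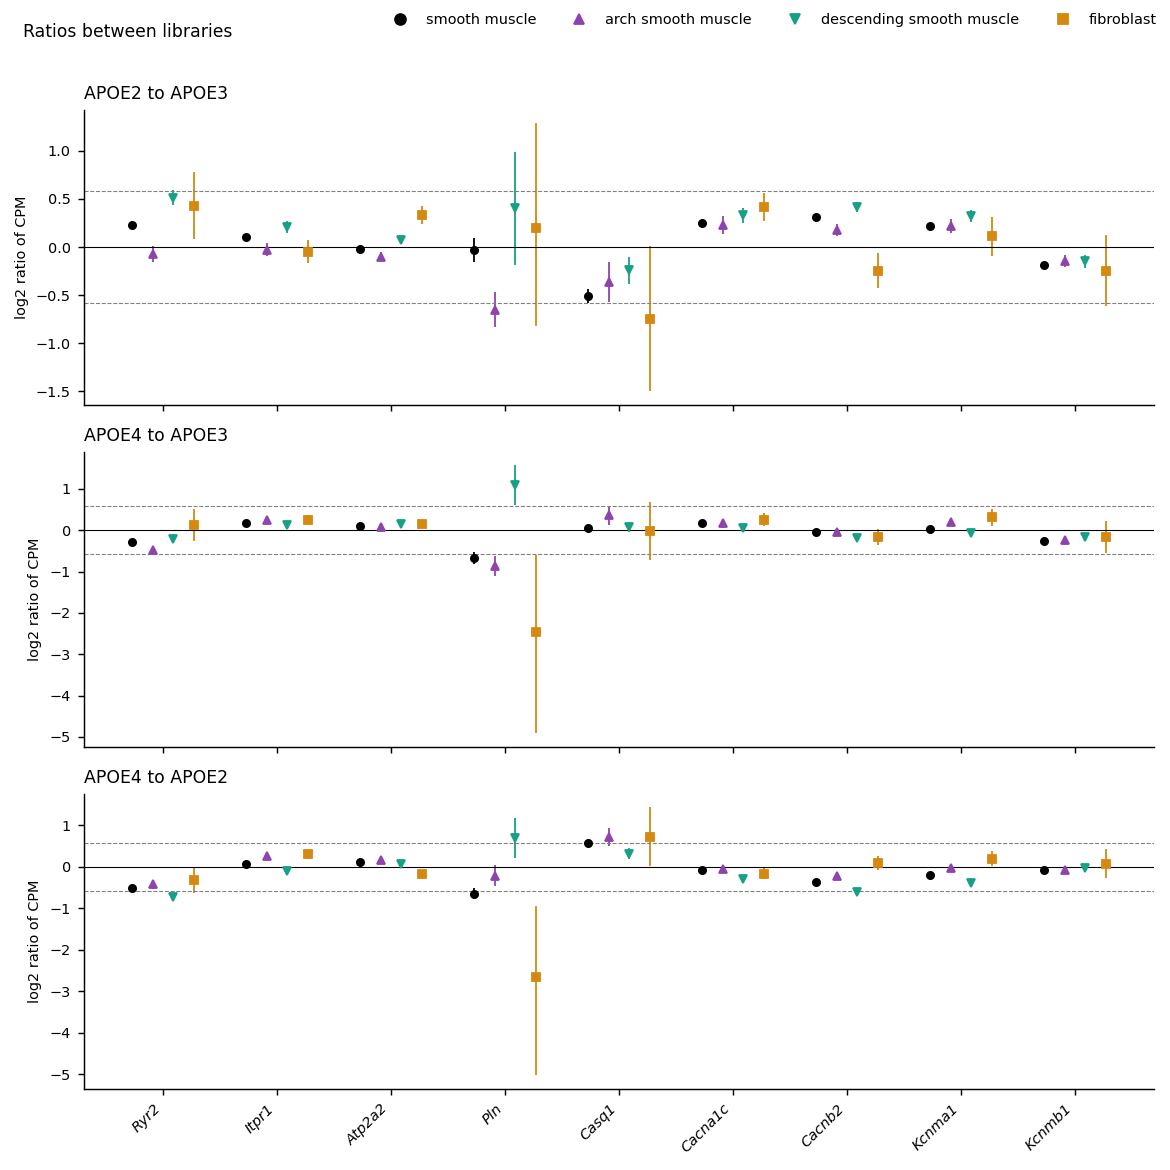
Log2 ratio of CPM between libraries for 9 of the 10 genes (Casq2 had too few UMIs), with 1 panel for each pair of libraries, points for smooth muscle, its arch and descending cells and fibroblasts, bars for the 95% counting interval and dashed lines at 1.5-fold. Most points for smooth muscle lie inside the dashed lines, Pln in APOE4 over APOE3 (-0.68) lies outside, and its arch (-0.86) and descending (1.09) points fall on opposite sides of 0. The descending APOE4 value of Pln rests on 137 UMIs, 48 of them in C9.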

How the data were processed

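Single-cell RNA-seq of aortas was analysed from 3 droplet libraries, 1 pool for each genotype. The authors used Cell Ranger with the mm10 genome (7.0.1 per the file headers, while the study's methods name another version, so whether introns were counted stays unknown) and deposited UMI counts per gene and barcode, without normalization. The 10 genes, the lists and the tests were chosen with earlier results of these data known. Cells with at least 200 genes and under 20% mitochondrial UMIs were kept, normalized with sctransform 0.4.2, integrated in Seurat 5.3.0 (3000 features without the calcium genes, 30 components) and grouped into clusters with R 4.3.3 (Louvain, resolution 0.8). The methods of the study give no values for these limits. Clusters were named from fixed marker lists. Leaving unnamed those that held smooth muscle markers and those of another type was decided after the data were seen. Scrublet in scanpy 1.11.5 marked almost no cells and was not used to remove any.

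Each class of each library was summed to 1 profile of UMIs, given per 1000000 (CPM), with exact Poisson, conditional binomial or Clopper-Pearson intervals at 95% that cover counting error only. Cells were not replicates. Classes within libraries were tested by edgeR 4.0.16 (quasi-likelihood, TMM, low-count filter, threshold 0.05) with the library as a block, since each library holds both classes, and DESeq2 1.42.0 was an alternative. On simulated data, edgeR recovered 160 of 185 changed genes with 8 false calls among 15218 (smooth muscle against fibroblasts) and 184 of 197 with 3 among 13625 (position). The counting interval held the true ratio in 95.2% of 13573 genes for APOE2 to APOE3, on counts drawn from a Poisson model. The interval assumes such counts, which hold no variation between cells, mice or libraries. That figure therefore checks the calculation only. Named genes were the 10 members, the 3 genes most like each, and up to 4 genes of the calcium list in each genotype comparison. Leading genes of clusters and genes of marker lists are named only to describe them. Calculations used Python 3.11.15, numpy 2.4.6, scipy 1.17.1 and pandas 2.3.3.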

Additional observations from a re-analysis of the deposited data

Results flagged for a closer look

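Several genes had ratios between libraries that pointed one way in one class and the opposite way in the other, each with a 95% counting interval on its own side of 0. With 1 library for each genotype, none of these differences was tested. Between smooth muscle and fibroblasts, Cacnb2 in APOE2 over APOE3 was at 0.31 on the log2 scale in smooth muscle and at -0.25 in fibroblasts. In APOE4 over APOE2, Atp2a2 was at 0.11 in smooth muscle and -0.18 in fibroblasts, and Kcnma1 at -0.18 and 0.20. The 2 fibroblast clusters, C5 and C7, differed in Kcnma1. In C5 it was lower in APOE4 (95% interval 40.2 to 50.3 CPM) than in APOE2 (50.8 to 62.7), as in smooth muscle. In C7 it was higher in APOE4 (39.7 to 53.5) than in APOE2 (22.5 to 29.7). The Kcnma1 split thus did not hold in C5. The falls of Atp2a2 and Cacnb2 in fibroblasts were present in C5, while in C7 the intervals of the 2 libraries overlapped.

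Between positions in smooth muscle, Pln in APOE4 over APOE3 was at -0.86 in arch cells and 1.09 in descending cells, the widest of these splits. Of its 137 APOE4 and 52 APOE3 UMIs in descending cells, 48 and 1 were in C9. Kcnma1 in APOE4 over APOE3 was at 0.20 in arch cells and -0.0589 in descending cells. Atp2a2 in APOE2 over APOE3 was at -0.10 in arch cells and 0.0726 in descending cells, and Itpr1 in APOE4 over APOE2 at 0.27 and -0.0879. Apart from those of Pln, these ratios were all under 1.5-fold.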

How the results depend on the processing

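For APOE2 over APOE3 no member was past 1.5-fold, but 2 were with the class set cell by cell, Pln higher (0.82) and Casq1 lower. That class held 2837 APOE2, 775 APOE3 and 1986 APOE4 cells. In arch cells alone 1 was past it, Pln, and there it was lower (-0.65). Casq1 alone was past it, lower, both with all clusters that keep smooth muscle markers and with C2 added. The share of all genes past 1.5-fold under the alternatives is not given. For APOE4 over APOE3 the count of 1 (Pln) became 0 with all such clusters, with C2 added and with the mean of each cell's CPM. For APOE4 over APOE2 the count of 1 became 0 with the highest Scrublet scores removed, 2 with the class set cell by cell, with all such clusters and with C2 added (Pln and Casq1), and 3 in descending cells alone (Ryr2, Pln and Cacnb2). It remained 1 in arch cells alone and with scaling by the median gene, but there the gene was Casq1, higher in APOE4 (0.73 and 0.68), and Pln was not past 1.5-fold (-0.21 and -0.53). The alternatives with all such clusters and with C2 were chosen after seeing the data. In descending cells alone the Pln ratio reversed, to 1.09 in APOE4 over APOE3 and 0.69 in APOE4 over APOE2. Of the 137 Pln UMIs in APOE4 descending cells, 48 were in C9. With a wider arch list the descending to arch change of Kcnmb1, not called in either case, turned to 0.0037.

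Leaving out each library in turn gave 9 to 10 members called in smooth muscle against fibroblasts and 5 to 6 between positions. Over all genes, the fits without APOE2, APOE3 and APOE4 called 5250, 4405 and 4320 higher in smooth muscle and 4626, 3952 and 4043 lower. They tested 16451, 17015 and 16613 genes. Between positions they called 683, 479 and 696 higher and 1273, 977 and 1260 lower, of 13855, 14152 and 13929. Without the replicate block, 2 members were called between positions in place of 6, and over all genes 106 were higher and 200 lower in place of 782 and 1412. DESeq2 gave 405 and 859, the fit without the APOE3 library 479 and 977, and the fit without a low-count filter 1254 and 1815 over 22666 genes. The block changed no member's call in smooth muscle against fibroblasts. The cause of these shifts was not tested. Of the single-gene values under alternatives, 496 kept their direction and side of the threshold or moved by less than their interval. Another 147 moved further, 3 reversed, 2 gained a call and 10 lost one. Signs also changed among values not counted as reversed. In APOE2 over APOE3, Pln kept its direction in 5 of 14 alternatives and Atp2a2 in 10 of 14.

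Depth limits Casq2, with 26 to 34 UMIs in a smooth muscle class, and Pln in descending cells, with 50 to 137. With 1 pooled library for each genotype, mouse, digestion and library cannot be told apart from genotype.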

Other observations

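Among the other calcium genes, 7 of the 74 with enough UMIs were past 1.5-fold higher in APOE2 than in APOE3 smooth muscle and 0 lower, beside 7.05% and 1.91% of all genes, a share near the background. Kcnn4, an intermediate-conductance potassium channel opened by calcium, was at 2.53, 0.212 and 0.113 CPM in APOE2, APOE3 and APOE4, with a log2 ratio of 3.58 (2.91 to 4.34) in APOE2 over APOE3 and -4.49 (-5.51 to -3.62) in APOE4 over APOE2. Orai2, a store-operated calcium channel, was at 2.91, 1.53 and 1.48 CPM (0.93 in APOE2 over APOE3), Nfatc2, a transcription factor that calcineurin activates, at 1.95, 0.769 and 1.26 CPM (1.35), and Atp2b2, a plasma membrane calcium pump, at 0.860, 0.368 and 0.544 CPM (1.23). All of these stood at under 3 CPM in every library.

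In APOE4 over APOE3, 6 of 73 such genes were past 1.5-fold higher and 0 lower, beside 6.25% and 2.73% of all genes. Nfatc1 was at 15.5, 12.6 and 24.0 CPM, with a log2 ratio of 0.92 (0.82 to 1.03), Cacnb4, a calcium channel beta subunit, at 3.30, 2.41 and 4.06 CPM (0.75), and Kcnmb4, a beta subunit of the large-conductance potassium channel, at 0.455, 0.446 and 0.873 CPM (0.97). Nfatc2 followed at 0.72. In APOE4 over APOE2, 3 of 76 were higher and 8 lower, beside 5.26% and 8.18% of all genes, with Itpr3 at 1.18, 0.802 and 0.585 CPM (-1.02), Orai2 at -0.97 and Kcnmb4 at 0.94.

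Outside the smooth muscle class, the unnamed cluster C12, whose cells had medians of 1363, 1961 and 2031 UMIs, held 181 CPM of Pln and 7.32 CPM of Casq2 in APOE2 (436 cells). In APOE3 and APOE4 its Pln was at 4.73 and 3.73 CPM, and no Casq2 UMI was counted, which allows up to 3 counts. The cardiomyocyte list summed to 2495 CPM in the APOE2 cells of C12 and to 29.6 and 28.6 CPM in those of APOE3 and APOE4. The cause was not tested.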
